A study of Mus musculus with 2 samples.

Results

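MHC class II high macrophages were examined among stromal vascular cells of epididymal fat, which are what remains of digested tissue once the fat cells are removed. Male C57BL/6J mice, either wild-type or lacking Mincle (the lectin receptor encoded by Clec4e), had spent 15 weeks on high-fat chow. Cell suspensions of both genotypes were stained with hashtag antibodies, pooled and captured on a microwell system (BD Rhapsody), and the pool gave 1 library of transcripts and 1 of hashtags. The labels pair no hashtag with a genotype and do not say how many mice stand behind a hashtag, so the 4 hashtags (A0309, A0310, A0311 and A0312) serve only to show the spread, the genotypes were not compared, and no test between samples was possible.

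The members were chosen by their own transcripts. Levels were counts scaled to 10000 per cell (CP10k). A macrophage had at least 20 CP10k of Cd68, C1qa and C1qb together, under 10 CP10k of the fibroblast genes Dcn and Lum together, and fewer than 2 of the endothelial genes Cdh5, Kdr and Cldn5 counted. Of 15374 cells that the authors did not name doublets, 7866 met this, and 5100 of those had no count of the cycling genes Mki67 and Top2a. The members are the highest-scoring 20% of these by the summed CP10k of H2-Aa, H2-Ab1, H2-Eb1 and Cd74, without the cells that had 3 or more of 6 resident macrophage genes (Lyve1, Cd163, Cbr2, Cd209f, Cd209d and Ccl8) counted. That left 1011 of 1020 cells. They were set beside 3938 other macrophages of the same gate, scored below the cut and filtered in the same way.

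MHC class II molecules are cell-surface heterodimers that display peptides from engulfed proteins to CD4+ T cells. The alpha and beta chains are assembled with the invariant chain, encoded by Cd74, which is cut away in the endosome before the peptide exchange factor H2-DM loads the groove. Ciita, the class II transactivator, is recruited to an X and Y box enhanceosome upstream of these genes and sets their transcription. Fat tissue of obese mice holds several kinds of macrophage, among them lipid-associated cells around dying adipocytes and perivascular resident cells.

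The members are a range of this score, set by a percentile, and whether they form a type of their own was not tested. The cut lay at 370.703 CP10k. The lowest members scored 370.703 and 370.833, and the highest cells outside scored 370.542 and 370.435. Within 10% of the cut lay 321 cells, 149 inside and 172 outside. The members' median was 503 CP10k and their highest value 1059, against a median of 65.4 CP10k in the other macrophages. No score count at all was found in 556 cells (10.9% of the non-cycling macrophages). In the deposited table all 4 score genes lack low counts (below), and how many of these cells that touches was not tested.

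**Figure D1:**
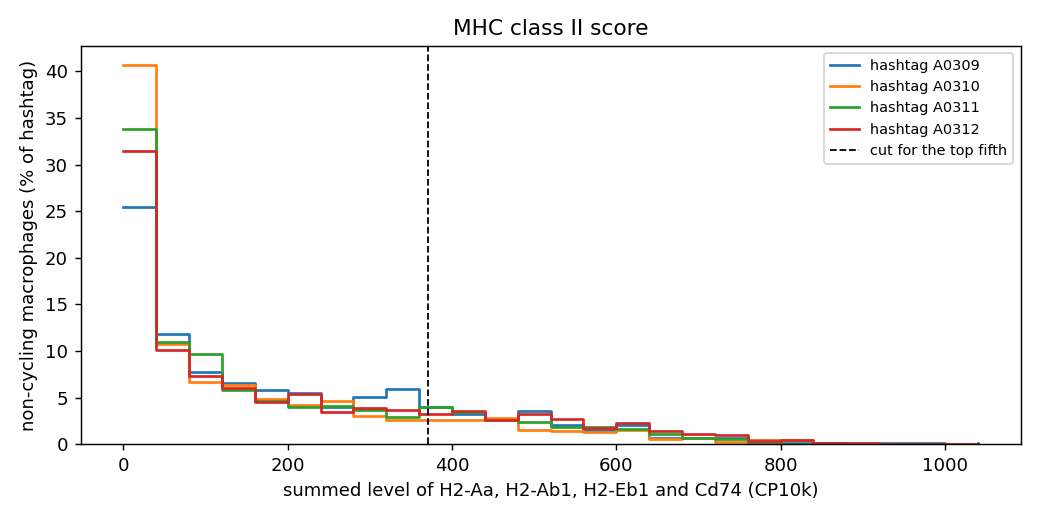
MHC class II score of the 5100 non-cycling macrophages: x, summed level of H2-Aa, H2-Ab1, H2-Eb1 and Cd74 in CP10k in bins of 40; y, percent of a hashtag's cells. Lines are the 4 hashtags and the dashed line is the cut at 370.703 CP10k, which members lie at or above.

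By hashtag, members made up 180 of 862 non-cycling macrophages in A0309 (20.9%, 95% Clopper-Pearson interval 18.2 to 23.8). The share was 14.9% in A0310 (161 of 1081, 12.8 to 17.2), 19.1% in A0311 (262 of 1370, 17.1 to 21.3) and 22.8% in A0312 (408 of 1787, 20.9 to 24.8). A0310 was lowest, and its interval overlapped none of the other 3 except narrowly that of A0311. The pooled share, 19.8%, is set by the rule. Intervals here and below cover counting error only. Macrophages with Mki67 or Top2a counted, which the rule left out, reached the cut less often, in 261 of 2766 cells (9.44%, 8.37 to 10.6), and they were deeper, with a median of 52078.5 counts.

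The label was set beside its markers. Because the first 4 of them chose the cells, their levels are a description only. Summed over the members and scaled to a common total per class and hashtag (CPM), H2-Aa reached 11398, 11741, 11328 and 11920 CPM in A0309, A0310, A0311 and A0312, against 2283, 1600, 1842 and 1885 CPM in the other macrophages. Cd74 reached 21914 against 4193 CPM in the pool, H2-Ab1 9592 against 1508 CPM and H2-Eb1 8594 against 1152 CPM. The 3 markers that the rule did not use, Ciita, Tmem176a and Mgl2, were higher in the members than in the other macrophages of all 4 hashtags. They were chosen with earlier results of these data known, so this is no independent check. Against dendritic-gated cells (described below) none of the 3 was called, and against resident macrophages only Ciita was. Mgl2 had 127 CPM in members, 229 CPM in resident macrophages and 218 CPM in dendritic-gated cells. Macrophage identity genes were present: Csf1r was counted in 99.6% and Adgre1 in 97.6% of members at a fixed depth of 10000 counts per cell.

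The members held fewer counts per cell. Their median was 23403 counts and 3531 genes, against 39567 counts and 4693.5 genes in the other macrophages. Along 5 equal groups of 1020 non-cycling macrophages ordered by the score, median counts were 45882, 46477.5, 37972, 30700.5 and 23400. The score is a share of a cell's counts, and the part of depth in the differences was not tested. Before scaling, the median score count was 1204 in members and 243 in other macrophages, a description of genes that chose the cells. Of genes outside the rule, Ciita was present at a mean of 4.91 counts per member and 1.76 per other macrophage, and Gpnmb at 8.75 and 165. H2-DMb1 had 17.6 and 8.09 counts, and Mrc1 25.6 and 19.4. The log2 ratios of these means were 1.12 for H2-DMb1 and 0.40 for Mrc1, smaller than the 1.95 and 1.23 of the scaled levels below. For Gpnmb the ratio was -4.23, against -3.40 after scaling. In all, the transcript library held 651658017 counts in 15741 cells. For 68 genes (among them all 4 score genes, Cd68, C1qa, Gpnmb, Ctsd, Ctsl, Lpl and Lyz2) low values had been set to 0 before deposit, which lowers levels and shares of cells with a count for these genes. The lowest count above 0 was 12 for Gpnmb and 16 for Lgals3, in raw counts. Members held fewer counts per cell, and thinning came after this step. Its part in the differences of these genes was not tested. Members and other macrophages had a single clear hashtag by tag counts in 94.8% and 93.6% of cells, and in no member did the tag counts name another hashtag than the deposited cell name. No source used here says if counts stand for reads or for molecules.

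Genes were called higher or lower by a rule of size. The log2 ratio, taken after adding 1 CPM to each level, had to reach 1 in size, with the same sign, in the pool and in each of the 4 hashtags. Of 10548 genes at 5 CPM or more in either class, 119 were called higher in the members (1.13%) and 110 lower (1.04%). The 119 include the 4 score genes, which chose the cells, so their calls are no result. In the pool alone, 2-fold differences were found for 276 genes (2.62%) and 239 genes (2.27%). The median log2 ratio over all tested genes was 0.03. The calls describe these cells and carry no p-value.

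The sequences below show upstream elements found in some class II genes, H2-DMb1 among them, which was called higher in the members. H2-Ob is shown for its like arrangement and was not called. They are RefSeq promoters of GRCm38.p6 on chromosome 17, read 5′ to 3′ on the gene's strand, with capitals for matches to an X box-like pattern (the first capitals in H2-Eb1, H2-Ob and H2-DMb1) and to ATTGG, the Y box core.
H2-Eb1: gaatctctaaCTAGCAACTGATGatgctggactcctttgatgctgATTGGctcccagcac
H2-Ob: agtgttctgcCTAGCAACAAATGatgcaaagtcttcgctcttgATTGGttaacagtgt
H2-DMb1: aggtttacCTAGTAACTGATGatgctaggc
H2-Aa: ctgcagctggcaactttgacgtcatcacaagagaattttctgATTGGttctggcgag
The stretches lie at chr17:34305763-34305822 (plus strand), chr17:34238805-34238862 (plus strand), chr17:34153086-34153115 (plus strand) and chr17:34287857-34287913 (minus strand). All precede the RefSeq start, and the H2-DMb1 stretch lies just inside the gene as GENCODE vM21 draws it. Both strands of the 250 bases before each start were searched, and no position is shared between the printed matches. Among 32851 such windows, 195 (0.594%) held the X box-like pattern, 11120 (33.8%) held ATTGG and 83 (0.253%) held both. In 11 windows (0.0335%), ATTGG followed the X box-like pattern on the gene's strand within 40 bases, a spacing chosen after the matches were seen. H2-Eb1, H2-Ob, H2-DMb1 and H2-Eb2 were among those. The rest were windows of Plekhh3, Usp11, Scgb2b20, 4930505K14Rik, Gm20636 and Gm31108, so the spacing was not limited to class II genes. H2-Aa, H2-DMb2 and H2-Oa held ATTGG and no match to the X box-like letters. Of 2 H2-DMa promoters 1 held ATTGG alone and the other held neither, although H2-DMa and H2-DMb2 were called higher. Neither Tmem176a nor Tmem176b held either pattern. These are matches of letters and not shown to be bound sites. The promoter table has no entry for H2-Ab1 or Ciita.

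Of the antigen presentation genes outside the rule, those for peptide loading and for the transactivator were higher in the members, while the proteases were not. In the MHC class II list, 4 of 12 tested genes were called higher (Ciita, H2-DMa, H2-DMb1 and H2-DMb2) and 0 lower, with a median log2 ratio of 0.81 against 0.03 over all genes. Ciita (chromosome 16, 10480059 to 10528418, plus strand) stood at 166, 186, 205 and 202 CPM in the members of A0309, A0310, A0311 and A0312, and at 49.0, 32.5, 36.3 and 40.4 CPM in the other macrophages. The ranges did not overlap, and the pooled log2 ratio was 2.28 (1.74 to 2.48 over hashtags).

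H2-DMa, a chain of the exchange factor, stood at 661, 594, 625 and 641 CPM in the members of A0309, A0310, A0311 and A0312 against 166, 113, 136 and 138 CPM, a log2 ratio of 2.20. Its partner chain H2-DMb1 had 692 against 179 CPM in the pool (1.95). H2-DMb2, the paralog that lies next to it, had 13.5 against 5.01 CPM (1.27), and lost its call in 5 of 17 other settings. Reads of such near-identical copies could be split by the authors' counting. H2-Ob, a chain of the H2-DO complex that restrains H2-DM, had 6.11 against 0.91 CPM (1.90) and did not meet the rule in every hashtag. Ctss, the protease that trims the invariant chain, stood at 2937 against 3367 CPM (-0.20). Lgmn, another endosomal protease, stood at 1108 against 1116 CPM and Ifi30, a thiol reductase of antigen processing, at 410 against 662 CPM (-0.69). The Rfx5, Rfxap and Rfxank subunits, which bind the X box, differed by 0.69, 0.01 and 0.31 on the log2 scale, and none was called.

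Class I molecules present peptides from inside the cell. None of its 10 tested genes was called, and the median log2 ratio was 0.38. B2m, the light chain of class I molecules, stood at 2792 against 2646 CPM (0.08).

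Among costimulatory genes, 2 of 9 were called higher, with a median log2 ratio of 0.55. Cd86, a ligand of CD28 on T cells, had 38.6, 52.4, 32.9 and 53.8 CPM in the members of A0309, A0310, A0311 and A0312 against 11.9, 12.0, 11.7 and 12.1 CPM. Every hashtag's members lay above every value of the other macrophages, and the log2 ratio was 1.83. The call was lost in 2 of 17 other settings, with counts thinned to a fixed depth (1.40) and with the mean over cells (1.44). Cd86 was not particular to the members. Resident macrophages, with 3 or more of the 6 resident genes counted, had 52.9 CPM, and against them it was not called (-0.23). At fixed depth Cd86 was counted in 21.0% of members, 8.7% of other macrophages and 31.8% of resident macrophages. Icosl, the ligand of ICOS, was called at 10.2 against 1.85 CPM (1.98), a call lost in 2 of 17 other settings. At fixed depth it was counted in 5.8% of members, 1.6% of other macrophages and 9.6% of fibroblast-gated cells (Dcn plus Lum at 10 CP10k or more), which had 14.6 CPM. The part of free RNA in these shares was not tested. Cd40 and Cd83, both markers of antigen-presenting cells, had log2 ratios of 1.01 and 0.95 and were not called.

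**Figure D2:**
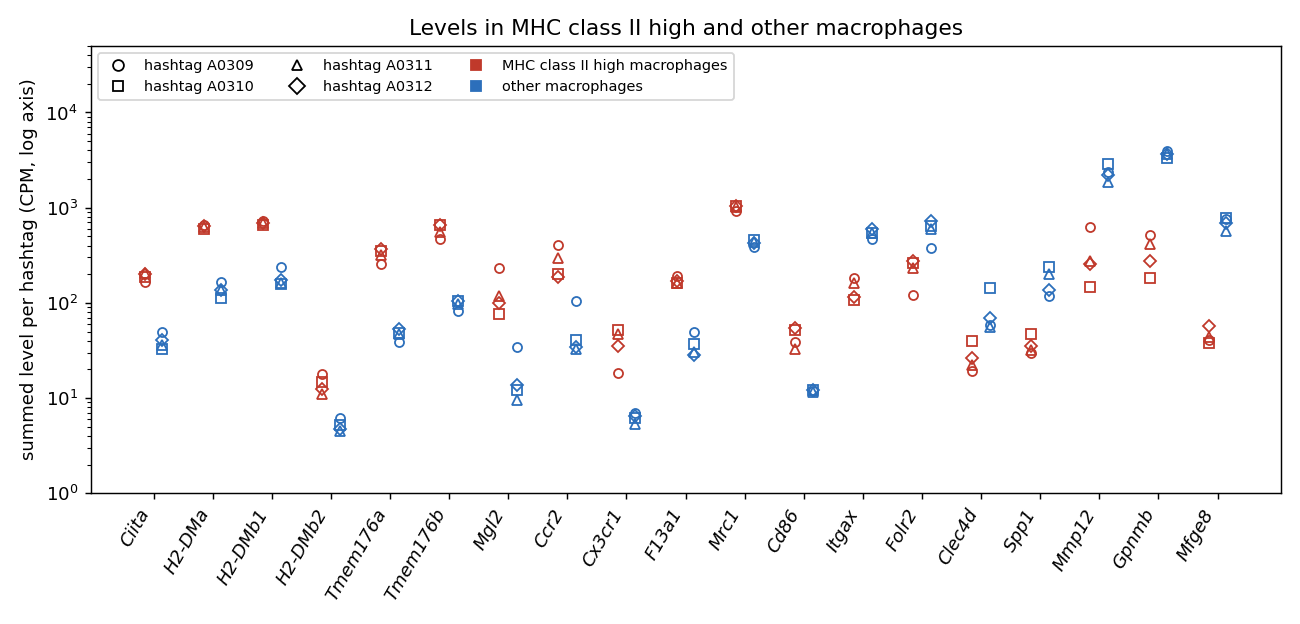
Levels of 19 genes in members (red) and other macrophages (blue): y, summed CPM per hashtag on a log axis; each symbol is a hashtag, with no error bars. Red symbols lie above blue ones from Ciita to Cd86 and below them from Itgax to Mfge8, with no overlap within a gene.

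Tmem176a and Tmem176b, which encode a pair of membrane channel-like proteins and are adjacent on chromosome 6, were among the most different genes. Tmem176a stood at 256, 349, 318 and 365 CPM in the members of A0309, A0310, A0311 and A0312, against 38.8, 48.7, 46.9 and 52.5 CPM. Its log2 ratio, 2.76, varied little over the hashtags (2.69 to 2.82). Tmem176b had 590 against 98.9 CPM (2.56). The annotation places Tmem176a at 48840919 to 48847071 on the plus strand and Tmem176b at 48833818 to 48841496 on the minus strand, so they overlap, and counting without strand could mix them. Fibroblast-gated cells also had a Tmem176a count in 34.8% of cells at fixed depth, against 71.0% of members and 23.1% of the other macrophages. In resident macrophages this share was 50.0%. They had 111 CPM of Tmem176a and 221 CPM of Tmem176b. Against them neither gene was called in the members, with log2 ratios of 1.56 and 1.41.

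Mgl2, a galactose-binding C-type lectin (chromosome 11, 70130329 to 70137550, plus strand), was uneven within the members. It stood at 233, 76.4, 118 and 98.7 CPM in A0309, A0310, A0311 and A0312 against 34.6, 12.2, 9.48 and 13.6 CPM, a log2 ratio of 2.93. It was counted in 36.6% of members, and 1 cell held 5.43% of its counts. Over its whole list of antigen-presenting macrophage genes, 6 of 13 tested were called higher and 1 lower, with a median of 1.24. Besides these and 2 chemokine receptors described next, Lsp1, a leukocyte actin-binding protein, was higher (175 against 51.9 CPM). Fibroblast-gated cells (476 CPM) and dendritic-gated cells (1543 CPM) had more Lsp1 than the members. Itgax, the integrin chain CD11c, was the one called lower. It had 183, 108, 160 and 115 CPM in the members against 469, 547, 546 and 604 CPM, a log2 ratio of -1.98.

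Of 5 tested chemokine receptors 2 were called higher. Ccr2, the receptor through which monocytes leave the marrow for tissue, stood at 405, 202, 297 and 188 CPM in the members of A0309, A0310, A0311 and A0312 against 105, 40.7, 32.6 and 34.5 CPM, a log2 ratio of 2.44. A0309 was highest in both classes. Cx3cr1, the fractalkine receptor, had 37.6 against 6.18 CPM (2.42), a call lost in 2 of 17 other settings. Neither gene was particular to the members. Dendritic-gated cells had 656 CPM of Ccr2 and 38.2 CPM of Cx3cr1, and against them neither was called. Resident macrophages had 89.9 CPM of Ccr2, and against them it was not called in the members (1.53).

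Of the monocyte genes, 2 of 6 tested were called, Ccr2 and F13a1, which encodes coagulation factor XIII A (171 against 34.3 CPM, log2 ratio 2.28). The whole list of 11 summed to 2096 CPM in members and 2092 CPM in other macrophages. Its most abundant genes, S100a6 (754 against 1008 CPM), S100a4 (606 against 789 CPM) and Fn1 (287 against 202 CPM), were not called. Ly6c2 had 6.89 CPM in members, Plac8 3.23, Vcan 3.62 and Chil3 0.35 CPM. The 16 dendritic cell genes summed to 163 CPM in members and 81.3 CPM in other macrophages. Flt3 stood at 2.14 against 0.40 CPM, Zbtb46 at 2.57 against 1.28, Clec9a at 3.39 against 0.17 and Cd209a at 4.398 against 0.48 CPM. All were higher in the members but below the 5 CPM needed for the comparison. At fixed depth Clec9a was counted in 1.14% of members (0.571 to 2.03) and 0.186% of other macrophages (0.0748 to 0.383). Xcr1 had 11.7 against 7.19 CPM, Irf4 15.7 against 8.29 CPM and Tbc1d4 16.5 against 17.8 CPM, and none was called. Batf3, a transcription factor that dendritic cells need, was called higher at 87.5 against 30.7 CPM (1.48), and Kmo, an enzyme of the kynurenine pathway, at 7.43 against 1.31 CPM (1.87), a call that was lost in 6 of 17 other settings. Of 6 tested genes in that list, these 2 were called. At least 2 of the 6 dendritic gate genes were counted in 27 members (2.67%) and in 63 other macrophages (1.60%). When Xcr1 was left out, this held for 9 members and 4 other macrophages. The part of dendritic cells in the members was not tested.

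The genes of lipid-associated macrophages were lower than in the other macrophages, but not by the rule against the neighbouring classes. Against resident macrophages 0 of 19 tested were called in either direction, with a median of -0.56. Against dendritic-gated cells 5 of 18 tested were called higher in the members, beside 3.63% of all genes, and 0 lower. What follows is against the other macrophages. Of 19 genes, all tested, 11 were called lower and 0 higher, all 19 had a negative log2 ratio, and the median was -1.28. Gpnmb, a lysosomal glycoprotein induced by lipid load, stood at 511, 181, 418 and 273 CPM in the members of A0309, A0310, A0311 and A0312 against 3983, 3332, 3643 and 3664 CPM. Its log2 ratio was -3.40. Mmp12, macrophage elastase, had 624, 147, 272 and 256 CPM in the members against 2380, 2850, 1868 and 2200 CPM (-2.85). The A0309 members were highest in both genes and still lay far under every value of the other macrophages.

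Among lysosomal proteases, Ctsk had 145 against 851 CPM (-2.54), Ctsl 626 against 2904 CPM (-2.21) and Ctsd 2135 against 6604 CPM (-1.63). Spp1, osteopontin, had 35.3 against 173 CPM (-2.26), Cd36, a fatty acid transporter, 1974 against 4951 CPM (-1.33) and Fabp5 356 against 857 CPM (-1.27). The lipid receptor Trem2 differed less, at 873 against 1595 CPM (-0.87), and Lpl, lipoprotein lipase, at 5828 against 10314 CPM (-0.82). Neither was called. Trem2 was counted in 90.8% of members and 98.4% of other macrophages at fixed depth. Values of Gpnmb, Ctsk, Ctsl, Ctsd, Cd36, Lgals3 and Lpl include the low values set to 0.

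Of the resident macrophage genes outside the rule, 2 of 9 were called higher and 1 lower, with a median of 0.31. Mrc1, the mannose receptor, had 919, 1039, 1013 and 1038 CPM in the members of A0309, A0310, A0311 and A0312 against 388, 459, 432 and 429 CPM (1.23), and its call was lost in 4 of 17 other settings. Folr2, a folate receptor, was lower, at 232 against 614 CPM (-1.40). Selenop, selenoprotein P, had 7288 against 4361 CPM (0.74) and was not called.

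**Figure D3:**
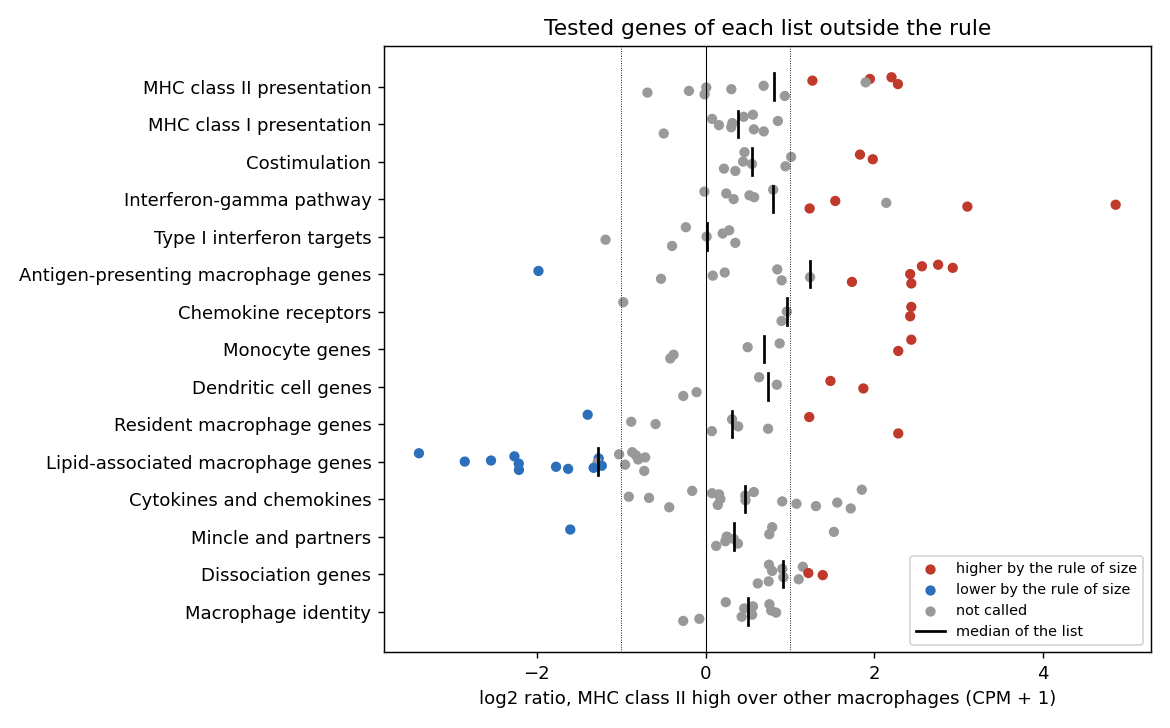
Tested genes of 15 lists, without those the rule used: x, log2 ratio of members over other macrophages (CPM + 1), with dotted lines at 1 and -1; each point is a gene, red or blue where called, and the bar is the list's median. The lipid-associated list lies wholly to the left (median -1.28), and the class II list reaches 2.28.

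Interferon-gamma is an inducer of Ciita in macrophages. Of 11 tested genes in that list 4 were called higher (Cxcl9, Cxcl10, Gbp2 and Cxcl16), with a median of 0.80. Cxcl9, a chemokine of the interferon response, stood at 86.0, 29.4, 59.7 and 101.0 CPM in the members of A0309, A0310, A0311 and A0312, against 2.26, 1.32, 1.65 and 1.59 CPM. Yet it was counted in 36 members only. The 13 members with 10 or more counts held 97.6% of them, and 1 cell held 21.5%. These 13 cells came from all 4 hashtags (1, 1, 5 and 6), all 13 had a Ciita count, 11 had a Gbp2 count and 5 a Cxcl10 count. At fixed depth Cxcl9 was counted in 2.6% of members (1.69 to 3.80), 1.04% of other macrophages (0.738 to 1.41) and 5.2% of fibroblast-gated cells, which had 18.7 CPM, and its call was lost in 3 of 17 other settings. Cxcl10 had 44.3 against 4.27 CPM with 29.6% of its counts in 1 cell, and it lost its call in 9 of 17 other settings. Gbp2, an interferon-induced GTPase, lost its call in 8 of 17. Cxcl16, a membrane-bound chemokine, was spread wider, in 77.5% of members, at 234 against 99.0 CPM (1.23). Its call held in 14 of 17 settings and was lost when counts were thinned. Irf1 and Irf8, transcription factors of the pathway, had log2 ratios of 0.52 and 0.58. None of 7 tested type I interferon targets was called (median 0.01).

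No cytokine or chemokine of the 17 tested in their list was called. Il1b had 56.1 against 14.8 CPM (1.85) and Ccl4, a chemokine, 170 against 56.9 CPM (1.56), but the ratio did not reach 2-fold in every hashtag. Tnf stood at 116 against 130 CPM, and Tgfb1 at 239 against 227 CPM. Of 9 genes for Mincle and its signalling partners, 1 was called. Clec4d, a lectin receptor encoded beside Mincle, was lower at 25.9 against 80.7 CPM (-1.60). Clec4e itself stood at 21.8, 23.5, 3.50 and 0 CPM in the members of A0309, A0310, A0311 and A0312, against 9.08, 11.5, 0.82 and 0.71 CPM. It was counted in 47 members (4.65%), its ratio changed sign between hashtags, and no genotype was read from it. Fcer1g, its adaptor chain, had 1429 against 1201 CPM (0.25).

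Immediate early genes also respond to enzymatic digestion. Of 10 in the dissociation list 2 were called, Egr1 (1243 against 534 CPM, 1.22) and Ier2 (324 against 123 CPM, 1.39), and all 10 had positive log2 ratios with a median of 0.92. The call of Egr1 was lost in 7 of 17 other settings. The summed level of the list ranged from 9163 to 13339 CPM over hashtags in members and from 5826 to 6329 CPM in the other macrophages. The part of digestion in the differences above was not tested.

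Markers of other cell types were summed as lists. Over 8 T and NK cell markers the summed level ranged from 9.59 to 21.0 CPM over the members' hashtags and from 7.99 to 11.1 CPM in the other macrophages. The 7 B and plasma cell markers gave 212 to 337 CPM against 79.3 to 92.3 CPM, nearly all of it Ighm, the immunoglobulin mu chain (267 against 80.03 CPM, log2 ratio 1.73). Of the B cell receptor chains, Cd79a was at 0 in the members and Cd79b had 11.7 against 4.04 CPM (1.33), which was not called. The part of these markers in the results was not tested. Resident macrophages, at 214 CPM, and dendritic-gated cells, at 225 CPM, held Ighm as well. Fibroblast markers summed to 72.0 to 93.9 CPM against 68.4 to 86.4 CPM, with Dcn at 0 in both classes. That 0 is no result, because the gate limits Dcn and Lum, and the deposited Dcn, Lum and Col3a1 lack low counts. Col1a1, which the gate did not use, was counted in 22.8% of members and 21.3% of other macrophages at fixed depth. The call of each named class II, Tmem176, Ccr2, Itgax, Gpnmb and Mmp12 gene apart from H2-DMb2 held when cells with 2 or more markers of another type were left out.

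Outside the lists and the rule, the 10 called genes with the largest ratios upward were led by Plbd1, a phospholipase B-like protein, with 132, 50.4, 48.7 and 33.4 CPM in the members of A0309, A0310, A0311 and A0312 against 15.8, 6.29, 2.79 and 1.14 CPM (3.27). Plbd1 was far higher in dendritic-gated cells, at 1593 CPM. At fixed depth it was counted in 81.0% of those cells, 11.0% of members and 2.4% of other macrophages. The rest of the 10 genes were Serpina3g, Adgre4, Rasgrp4, Lifr, Siglece, Ear2, Egr3, Ms4a8a and Ptgs1, with log2 ratios of 1.91 to 3.05. Adgre4 encodes an adhesion receptor of myeloid cells, Lifr the leukaemia inhibitory factor receptor and Ptgs1 cyclooxygenase-1. Serpina3g was counted in 27 members, with 30.0% of its counts in 1 cell, and lost its call in 5 of 17 other settings. Ear2 belongs to a family of near-identical ribonuclease genes, so its reads are uncertain. Downward, Mfge8, a bridging protein for the uptake of dying cells, had 47.8 against 689 CPM (-3.82), with low values set to 0. It was followed by Serpinb9b, Hmga2, Zranb3, Vsig8, Ppp1r1a, Uchl1, 4833415N18Rik, Cpe and Serpinb1c, with log2 ratios of -3.16 to -2.61. Cpe encodes carboxypeptidase E and Hmga2 a chromatin protein.

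Several genes changed in every step of the score, below the cut as well as across it. In 5 equal groups of non-cycling macrophages ordered by the score, resident cells included, Ciita stood at 4.39, 15.8, 48.3, 115 and 193 CPM. H2-DMa stood at 25.1, 70.4, 175, 356 and 633 CPM and Tmem176a at 12.2, 24.6, 57.3, 133 and 329 CPM. All 3 rose in each step and in each of the 4 hashtags. Ccr2 rose from 7.92 to 262 CPM, with its widest step between the third and the fourth group, from 42.8 to 165 CPM. Gpnmb went the other way, at 5109, 4065, 2898, 1271 and 345 CPM, and Itgax at 752, 574, 450, 287 and 139 CPM. Both fell in each step and in each hashtag, as did Mmp12, Ctsl and Ctsd. Cxcl9 stood at 0.46, 1.07, 2.73, 3.01 and 75.5 CPM, with its level almost wholly in the highest group. F13a1 did not rise in every step, at 59.3, 41.4, 58.7, 101.5 and 179 CPM, and neither did Retnla or Clec4e. These genes were chosen after their values were seen, and median depth falls along the same order. Over all 10740 genes tested here, 1972 rose and 1301 fell in each step.

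**Figure D4:**
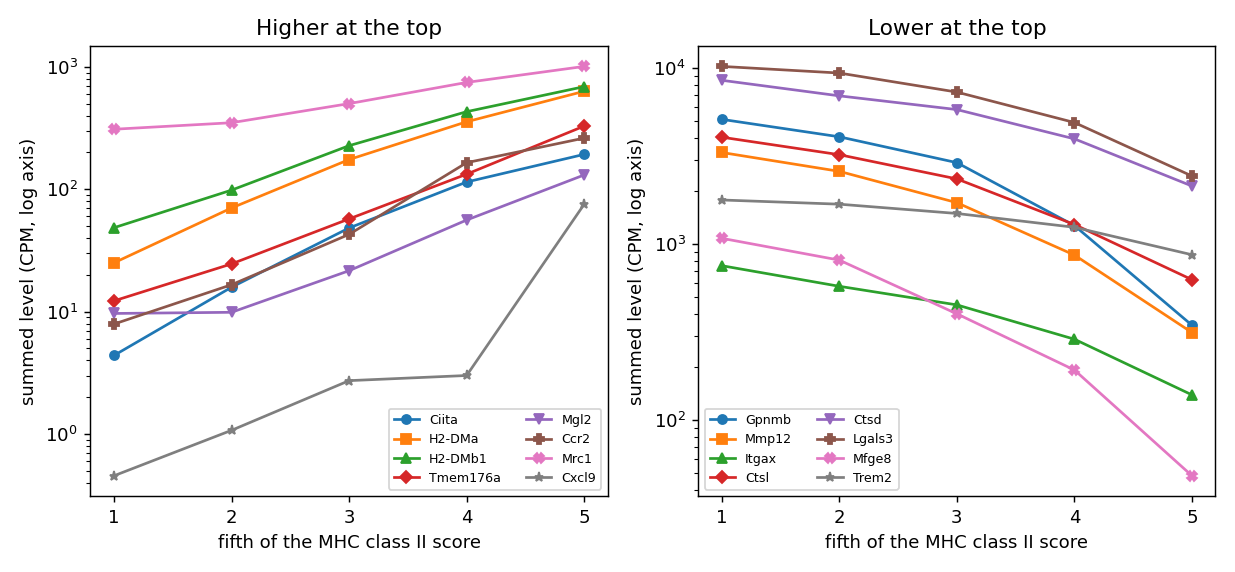
Levels over 5 equal groups of non-cycling macrophages ordered by the score, lowest to highest: y, summed CPM on a log axis; each line is a gene. Ciita goes from 4.39 to 193 CPM and Gpnmb from 5109 to 345 CPM; Cxcl9 is high in the last group only.

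At a fixed depth of 10000 counts per cell, which 964 of 1011 members and 3763 of 3938 other macrophages reached, the shares of cells with a count kept these differences. Ciita was counted in 62.6% of members (59.4 to 65.6) and 21.5% of other macrophages (20.2 to 22.9), against 72.3% and 31.3% without thinning and 1.9% of fibroblast-gated cells at fixed depth. Mgl2 was counted in 28.9% and 8.8%, and Ccr2 in 26.7% and 11.7%. Retnla, a secreted resistin-like protein chosen after its values were seen, was counted in 18.5% and 15.5%, although without thinning the order was the opposite, 26.4% and 30.1%, so no order was read from it.

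**Figure D5:**
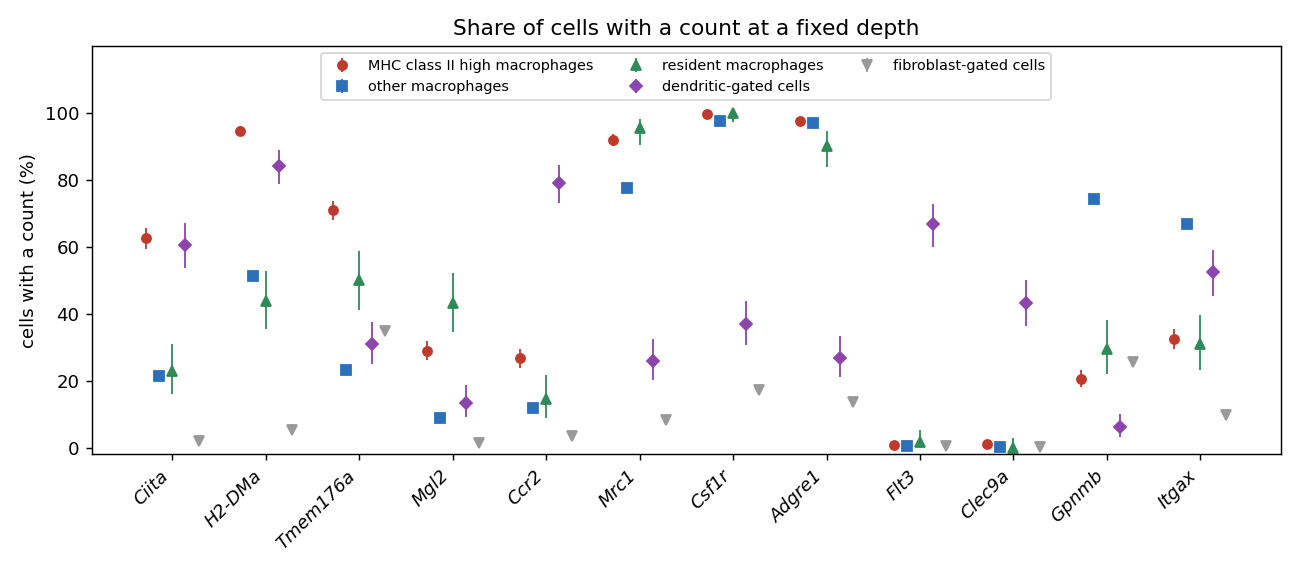
Percent of cells with a count at 10000 counts per cell for 12 genes in 5 classes; bars are 95% Clopper-Pearson intervals, covering counting error only. Members share Ciita with dendritic-gated cells and Csf1r, Adgre1 and Mrc1 with the other macrophage classes; Flt3 and Clec9a are near 0 in all macrophages.

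Resident macrophages, 151 cells with 3 or more of the 6 resident genes counted, were set beside the members. Of 10722 genes tested, 56 were called higher in the members (0.522%) and 80 lower (0.746%), and 2-fold differences in the pool alone were found for 2.67% of genes upward and 2.92% downward. These counts include genes that chose the cells, the score genes among the higher and the 6 resident genes among the lower. The members were higher in Cx3cr1 (37.6 against 3.34 CPM, log2 ratio 3.15), H2-DMa (633 against 143 CPM, 2.14) and H2-DMb1 (2.11), and in Axl, a receptor tyrosine kinase for apoptotic cells (271 against 104 CPM, 1.37). Outside the genes that chose them, resident cells were higher in Cd209g and Cd209b, lectins of the same cluster as their gate genes, in the endothelin receptor Ednrb (7.55 against 325 CPM, -5.25), in F13a1 (171 against 1026 CPM) and in Folr2 (232 against 1398 CPM). Mrc1 was at a like level, 1008 against 1154 CPM, as was Itgax, 139 against 144 CPM. Mgl2 was 127 CPM in members and 229 CPM in resident cells, with a range over hashtags of 76.4 to 233 and 63.5 to 620 CPM, so that the classes overlapped. Gpnmb was 345 against 818 CPM and was not called.

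Dendritic-gated cells lay outside the macrophage gate and had at least 2 of Flt3, Zbtb46, Cd209a, Clec9a, Xcr1 and Ccr7 counted. There were 250 of them, of which 165 (66.0%, 59.8 to 71.9) reached the members' score cut. Of 11611 genes tested, 421 were higher (3.63%) and 745 lower (6.42%) in the members, and in the pool alone 933 were 2-fold higher (8.04%) and 1622 were 2-fold lower. These counts include genes of the gates: Cd68, C1qa and C1qb were among the higher. The dendritic gate genes, Mki67 and Top2a were among the lower. Ciita had 193 CPM in members against 220 CPM and H2-DMa 633 against 662 CPM, and neither was called. Cd86 stood at 97.9 CPM in dendritic-gated cells, with a log2 ratio of -1.10 for the members, and was not called. H2-Aa had 11632 against 7922 CPM, a level that the score cut sets in the members. H2-DMb2 (13.5 against 83.5 CPM, -2.55), H2-Oa (1.52 against 79.2 CPM) and H2-Ob (6.11 against 148 CPM, -4.39) were lower in the members. Macrophage genes were higher, with Csf1r at 1428 against 158 CPM (3.17), Adgre1 at 927 against 95.6 CPM (3.26), Mertk at 47.2 against 8.20 CPM (2.39) and Mrc1 at 1008 against 128 CPM (2.97). The gate is not pure. Its cells were also high in the stromal genes Col3a1 and Sparc (3.97 against 443 CPM), and Xcr1 was counted in 21.9% of fibroblast-gated cells without thinning. A gate built on monocyte genes gave 166 cells that were led by genes of NK and T cells (Nkg7 at 0.90 against 206 CPM, Gzma at 0.51 against 138 CPM and Trbc2 at 1.40 against 102 CPM), so these cells were not taken as monocytes. Of 11397 genes tested against them, 215 were higher (1.89%) and 431 lower (3.78%), and nothing further is read from these counts.

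Within the members, Ccr2 was counted in 298 of 1011 (29.5%, 26.7 to 32.4), and in 44.4%, 26.1%, 29.0% and 24.5% of members of A0309, A0310, A0311 and A0312. A0309 was highest, with an interval (37.1 to 52.0) above those of the others. Since a count of Ccr2 chose these cells, Ccr2 itself is no result, and the split was chosen after the data were seen. Of 10605 genes tested, 31 were higher in members with a Ccr2 count (0.292%) and 6 lower (0.0566%). Plbd1 stood at 168 against 8.29 CPM (log2 ratio 4.19, 1.93 to 5.95 over hashtags) and Lsp1 at 414 against 63.2 CPM (2.69, 2.55 to 2.78). Dendritic-gated cells had more of both genes, at 1593 and 1543 CPM. Ear2 (486 against 53.0 CPM), Fgr, a Src family kinase (45.5 against 7.32 CPM), and Fn1, fibronectin (601 against 139 CPM), were called as well. Retnla had 3789 against 766 CPM (2.31), but its level over hashtags ranged from 230 to 7437 CPM in the members with a Ccr2 count. Lower were Slc40a1, the iron exporter ferroportin (0.12 against 5.77 CPM), and Sox4, a transcription factor (22.3 against 59.4 CPM).

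Ciita had 218 CPM in members with a Ccr2 count against 181 CPM in the others (0.26), and Tmem176a 300.5 against 342 CPM, and neither was called. Mgl2, at 244 against 72.2 CPM (1.74), was higher in the pool and reached a log2 ratio of only 0.93 in 1 hashtag, so it was not called. Folr2 had 142 against 275 CPM (-0.95). Flt3 and Cd209a were low on both sides, at 4.39 against 1.09 CPM and 11.8 against 0.91 CPM.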

How the data were processed

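Transcripts and hashtags of 1 pool of cells were measured as 2 libraries. The authors deposited whole-number counts per gene and cell and whole-number tag counts per barcode; the build GRCm38 and the tools Bowtie2 2.4.2, cutadapt 3.4, R 4.1.2 and R 3.6.3 are named in the submitters' processing notes, which give no roles. Cells are named in the deposited header by hashtag, or as doublets; those 367 were left out and no doublet caller was run.

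Cells were classed by the gates in the text, counts were summed per class and hashtag and scaled to CPM, and genes were called by the rule of size. Intervals are 95% exact Poisson or Clopper-Pearson. Cells are not replicates and the hashtags' genotypes are not given, so no test was run. For shares at fixed depth, each cell was thinned to 10000 counts with seed 1. Tools were python 3.11.15, numpy 2.4.6, scipy 1.17.1 and pandas 2.3.3. Coordinates are from GENCODE vM21. The 22 gene lists held 233 entries, of which 2 are not analysed here. The members and lists were chosen with earlier results of these data known. Genes named are the 7 markers, Clec4e, up to 4 called genes per list and direction with the largest ratios, the uncalled gene of each list with the highest CPM, and the 10 largest per direction outside the lists. Further genes of the lists, of the ordered groups, of the neighbouring classes and of the Ccr2 split were named after their values were seen. Some members of the lists are not reported here.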

Additional observations from a re-analysis of the deposited data

How the results depend on the processing

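With 1 pool and no replicates, intervals cover counting error only, and whether counts are reads or molecules bears on their width. No paired analysis was possible because the 2 libraries are the transcripts and the tags of 1 pool and no hashtag has a genotype. The number of genes higher in the members fell from 119 to 65 with a pseudocount of 5 CPM, to 65 with the mean over cells in place of the sum, to 73 with counts thinned to a fixed depth and to 79 without cells holding markers of other types, and of those 65, 65, 69 and 72 were among the 119. Genes lower fell from 110 to 60 with the pseudocount of 5 CPM. That marker filter kept 569 members, since Ighm, Col1a1 and Col1a2 are counted in many macrophages; without those 3 genes, a choice made after seeing the data, it kept 917 members and gave 102 genes higher and 102 lower. Leaving out 1 hashtag gave 119 to 164 genes higher and 117 to 154 lower. In the settings that keep the 20% cut, the share of non-cycling macrophages lay between 19.80% and 19.84%, as the rule sets it; a cut at 10% or 30% gave 507 or 1513 members. Shares at fixed depth of 62.6% for Ciita, 71.0% for Tmem176a and 28.9% for Mgl2 were 72.3%, 78.1% and 36.6% without thinning. A score on thinned counts chose 963 members, of which 939 were members by the rule. Over 17 other settings, 33 of the 54 named genes that were called kept the call in all, and no named called gene changed sign. Both the 33 and the 54 include the 4 score genes, whose calls follow from how the members were chosen. Some of the 17 settings could change few calls. A stricter macrophage gate kept 1010 members and a cell quality filter 1004, and with each all 77 named genes kept their status. Leaving out 1 hashtag asks for agreement in fewer hashtags, which is a looser rule.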
